A study of Mus musculus with 6 samples.

Results

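The genes described here were 40 mouse genes of the extracellular matrix: 13 collagen chains, 6 small proteoglycans and matrix-binding proteins, 5 genes of elastic fibres and fibronectin, 5 matricellular genes, 4 genes of collagen processing and cross-linking, and 7 basement membrane glycoproteins. They were taken by name and read from a table of raw counts for 57010 genes; all 40 had at least 10 counts over the 6 libraries, and 36 passed the filter on low counts and were tested. RNA came from CD45+ CD90.2- cells of the heart, which the labels describe as immune cells without T cells. The titles of all 6 libraries, the isotype controls included, call the cells cardiac-infiltrating and name myocarditis. All mice carried the genotype labelled Ova DTG, in which ovalbumin is expressed as a transgene restricted to the heart, and had received naïve CD8 T cells of the OTI line, which recognise ovalbumin (100000 cells unless otherwise stated, per the labels' protocols). The 3 libraries labelled ICI came from mice given the immune checkpoint inhibitors anti-CTLA-4 (200 µg) and anti-PD-1 (200 µg), and the 3 labelled isotype from mice given isotype antibody; the transferred cells and the transgene were thus shared by both groups. The labels call the libraries biological replicates 1 to 3 of each group, and the p-values measure only the spread between these libraries.

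Collagens are secreted chains that wind around each other and assemble outside the cell into fibres, networks or microfilaments. Small leucine-rich proteoglycans coat the fibres, elastin and fibrillin give recoil, and laminins, nidogen, perlecan and collagen IV form the basement membrane under endothelium and around each cardiomyocyte. In the heart most fibrillar collagen is made by fibroblasts and much of the basement membrane by endothelial, mural and muscle cells, none of which carries CD45; fibronectin is also made in quantity by macrophages.

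Total counts per library ran from 21528274 to 30736316 and were lower in each library labelled ICI than in any labelled isotype. Ptprc, which encodes CD45, was measured at 28139, 33753 and 26764 counts in ICI replicates 1 to 3 and at 28026, 25242 and 32722 in isotype replicates 1 to 3, and was not called (edgeR adjusted p = 0.17). Thy1, which encodes CD90.2, had 1, 1 and 2 counts against 1, 1 and 0. Both markers of the gate were thus where the sort would place them in all 6 libraries. In bulk RNA these counts cannot show whether a small share of the cells lacked CD45. Replicate 3 of each group carried Xist counts (2786 for ICI and 1844 for isotype) with few counts of 4 Y-linked genes (6 and 130), while the other 4 libraries carried at most 12 Xist counts and at least 3620 Y-linked counts. With a term for these Xist-high libraries, added after the data were seen, 32 matrix genes were called higher, and 31 with replicates 1 and 2 of each group alone.

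Most of the matrix genes were higher in the libraries labelled ICI. By edgeR's quasi-likelihood test, with p-values adjusted over all 14575 tested genes and called under 0.05, 32 of the 36 tested members were higher, 0 were lower and 4 (Col3a1, Fn1, Fbn1 and Loxl2) were not called. Of all tested genes 68.4% were called, 34.7% higher and 33.7% lower, so the comparison as a whole was wide, and with library totals alone in place of TMM factors the split of all called genes moved from 5056 higher and 4913 lower to 6212 and 3700. Among the members 29 were called higher by more than 4-fold, where 11.1% of all tested genes were, and 22% of the 5889 tested genes with a mean under 10 CPM (counts scaled to a library total of 1000000); 33 members lay under that mean, and 25 of these were called higher by more than 4-fold. The median log2 fold change was 3.30 over the tested members and 0.03 over all tested genes. These counts are a description and carry a bias of selection: 24 of the 36 tested members passed the filter (10 counts in a library of median size, 0.413 CPM, in 3 libraries) only through the libraries labelled ICI. The other 12 members reached it in all 3 isotype libraries by themselves, and of these 9 were called higher and 3 were not called. In 35 of the 40 members, the untested Col18a1 among them, every library labelled ICI was above every library labelled isotype, as in 45.3% of all tested genes; Fbn1 was the only member with all ICI libraries below. Because the libraries are bulk RNA, fewer cells of a type and less RNA per cell cannot be told apart. Summed over the 39 members other than Fn1, the level was 577, 311 and 346 CPM in ICI replicates 1 to 3 and 65.8, 84.6 and 73.1 CPM in isotype replicates 1 to 3, so the matrix genes were a small share of the RNA in each library.

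**Figure D1:**
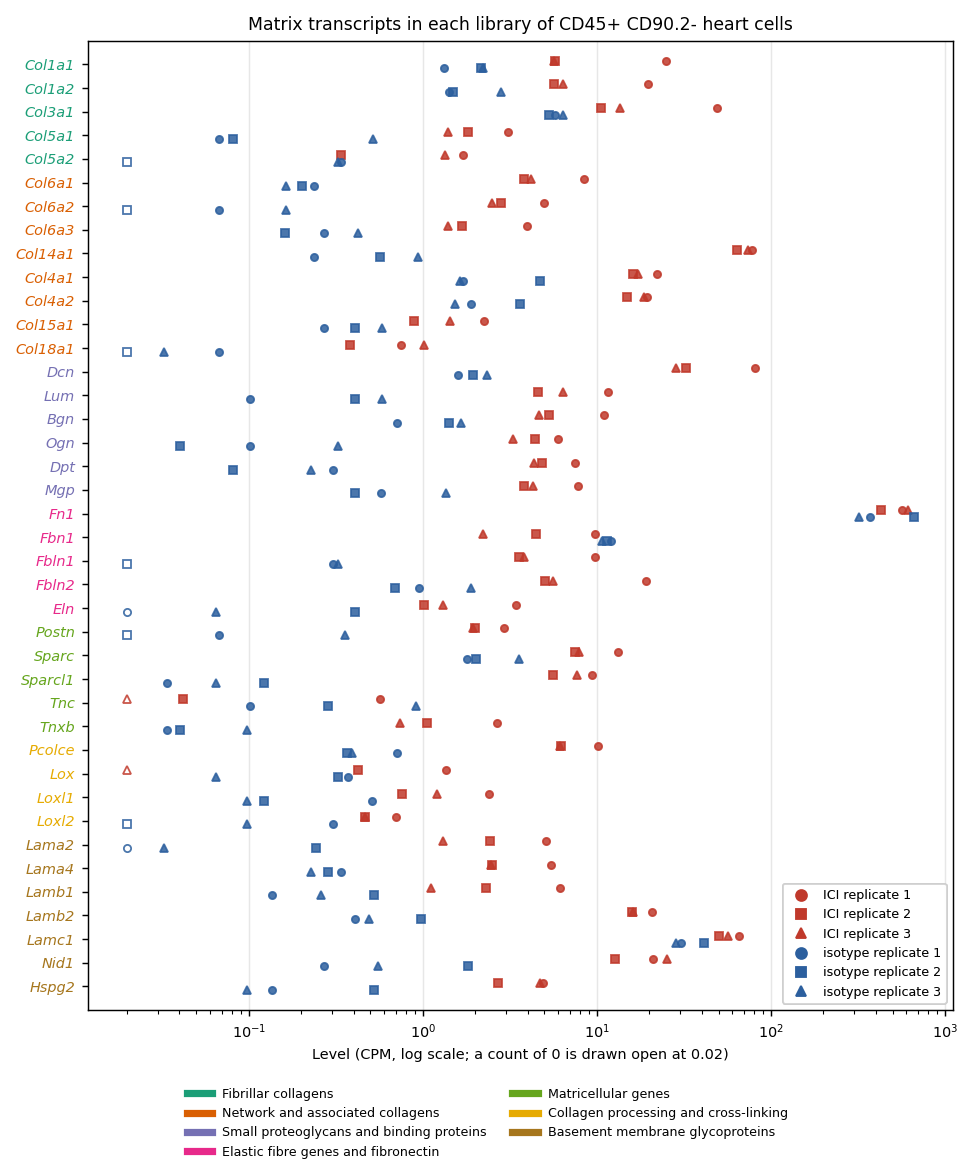
Level of each of the 40 matrix genes in each of the 6 libraries, in CPM on a log axis, with ICI libraries in red, isotype libraries in blue, a marker shape for each replicate and gene names coloured by role. Nearly all red points lie to the right of the blue points; Fn1 overlaps, Fbn1 is reversed, and the red circle (ICI replicate 1) stands well to the right of the other red points for Col1a1, Col1a2 and Col3a1 and close to them for Col14a1 and Col4a2.

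**Figure D2:**
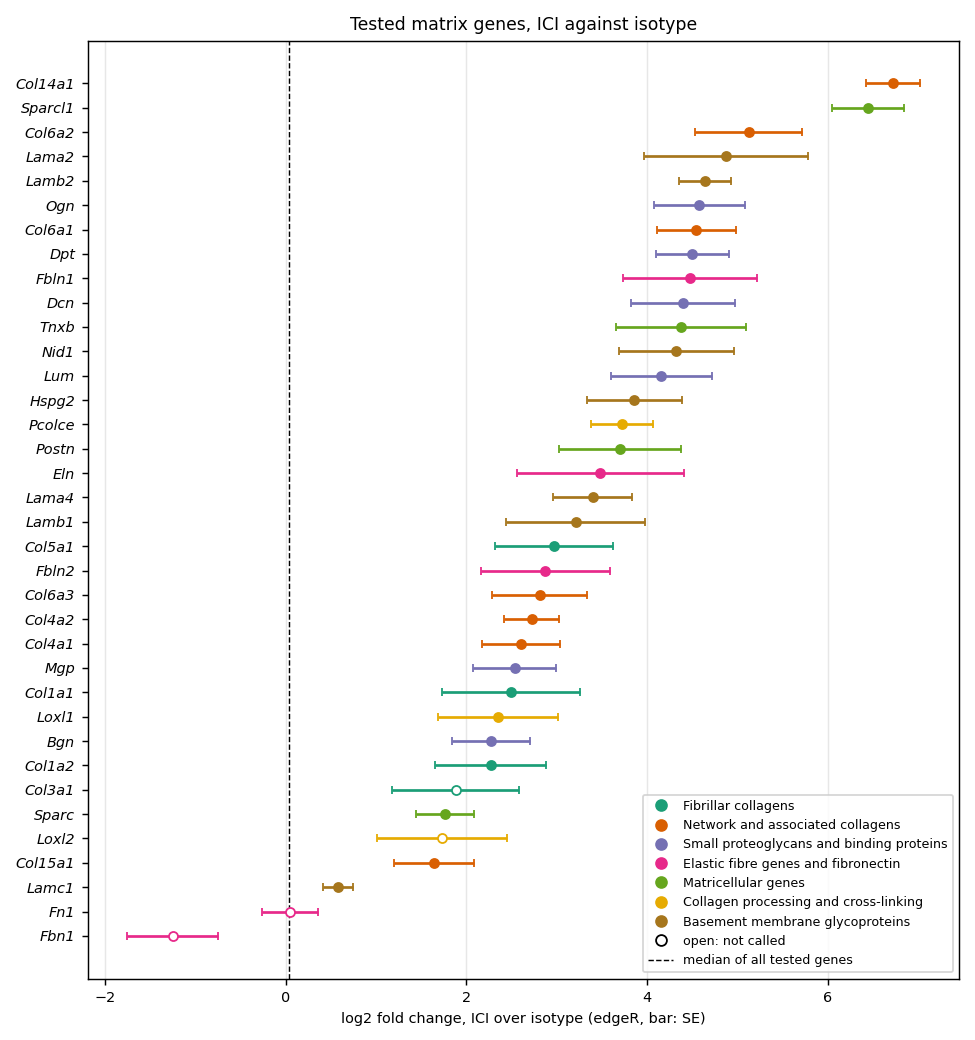
Log2 fold change (ICI over isotype, edgeR) of the 36 tested matrix genes with bars of 1 SE, coloured by role, open where not called, with the median of all tested genes (0.03) as a dashed line. Values run from 6.72 for Col14a1 to -1.25 for Fbn1, and the bars of Lamc1, Lamb2 and Col14a1 are short beside those of Eln, Lama2 and Col1a1.

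The fibrillar collagens form the tensile fibres of the heart's interstitium and included 3 genes called higher (Col1a1, Col1a2 and Col5a1), 1 not called (Col3a1) and 1 not tested (Col5a2). Col1a1 (ENSMUSG00000001506), the main chain of type I collagen, had 570, 136 and 122 counts in ICI replicates 1 to 3 and 39, 53 and 68 in isotype replicates 1 to 3. Its partner chain Col1a2 had 449, 135 and 138 against 42, 37 and 87 counts. Col3a1 (ENSMUSG00000026043), the chain of the more compliant type III collagen, had 1119, 249 and 291 against 169, 131 and 196 counts. For these genes the groups did not overlap, and ICI replicate 1 lay far above the other libraries of its group. Col1a1 was 5.63-fold higher (log2 fold change 2.49, SE 0.76, edgeR adjusted p = 0.0325). Col1a2 was 4.82-fold higher (2.27, SE 0.61, edgeR adjusted p = 0.018), while the 3.68-fold difference of Col3a1 (1.88, SE 0.71) missed the threshold at adjusted p = 0.0657. Without ICI replicate 1 the differences were smaller but tighter: 2.59-fold for Col1a1 (adjusted p = 0.00217), 2.704-fold for Col1a2 (0.00356) and 1.78-fold for Col3a1 (0.0031), which was then called; Col3a1 was also called without ICI replicate 2 (0.0385). The call of Col1a1 was lost without isotype replicate 1, 2 or 3 (adjusted p = 0.103, 0.105 and 0.107), and that of Col1a2 without isotype replicate 1 or 2 (0.0668 and 0.0821). Col5a1, a chain of the type V collagen that nucleates and limits fibre width, had 70, 43 and 30 counts against 2, 2 and 16, and was 7.82-fold higher (edgeR adjusted p = 0.00314), or 22.8-fold without isotype replicate 3. Its partner Col5a2 was too low to test, with 39, 8 and 29 counts against 10, 0 and 10, and its groups overlapped. Per transcript length the proportion of Col1a1 to Col1a2 was 0.9502 ± 0.178 (SD, n = 3) in libraries labelled ICI and 0.945 ± 0.308 in those labelled isotype, so the 2 chains of type I collagen kept a like proportion in both groups, within a wide spread. The proportion of Col3a1 to Col1a1 was 2.09, 1.95 and 2.54 in ICI replicates 1 to 3 and 4.62, 2.63 and 3.07 in isotype replicates 1 to 3, without overlap.

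Among the collagens that tie fibres to cells or form networks, fitted differences ran from 3.12-fold for Col15a1 to 106-fold for Col14a1. Col14a1 (ENSMUSG00000022371), a fibril-associated collagen that sits on the surface of type I fibres, had 1781, 1510 and 1583 counts in ICI replicates 1 to 3 and 7, 14 and 29 in isotype replicates 1 to 3. It was the member with the largest fitted difference, 106-fold (log2 fold change 6.72, SE 0.30, edgeR adjusted p = 9.26e-07), at 71.8 ± 7.38 CPM against 0.583 ± 0.354 CPM (SD, n = 3), and its ICI libraries lay close together. Collagen VI forms beaded microfilaments next to basement membranes, and its 3 chains among the members were all called higher, by different amounts. Col6a1 had 192, 90 and 90 counts against 7, 5 and 5 and was 23.3-fold higher (edgeR adjusted p = 1.13e-05). Col6a2 had 113, 67 and 54 against 2, 0 and 5 counts and was 34.9-fold higher (adjusted p = 4.49e-05), or 70.8-fold without isotype replicate 3. Col6a3 had 91, 40 and 30 against 8, 4 and 13 counts and was 7.02-fold higher (adjusted p = 0.000986), or 4.53-fold without ICI replicate 1. For each of these chains ICI replicate 1 was the highest library. Col15a1 and Col18a1 encode collagens of the basement membrane zone that carry glycosaminoglycan chains. Col15a1 was 3.12-fold higher (51, 21 and 31 counts against 8, 10 and 18, edgeR adjusted p = 0.00815); it was not called with ICI replicate 1 and isotype replicate 2 left out together (0.0851). Col18a1, the source of endostatin, was not tested; its 17, 9 and 22 counts against 2, 0 and 1 gave a ratio of 19.97 (95% exact counting interval 6.44 to 100.3).

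Collagen IV is the sheet-forming collagen of the basement membrane, and its major chains are encoded by Col4a1 and Col4a2, which lie head to head and are transcribed away from each other. Any part of promoter sequence in the levels of these genes was not tested. The promoter windows of this pair, and that of Col1a2 for comparison, are shown as sequence alone. They are RefSeq sequence of build GRCm38.p6, 250 bases before to 50 after each annotated start, written 5′ to 3′ on the gene's strand, with CCAAT, or ATTGG where the motif lies on the opposite strand, in capitals; the counts themselves were made on another build. The windows are chr8:11312777-11313076 (minus strand) for Col4a1, chr8:11312555-11312854 (plus strand) for Col4a2 and chr6:4505368-4505667 (plus strand) for Col1a2.
Col4a1: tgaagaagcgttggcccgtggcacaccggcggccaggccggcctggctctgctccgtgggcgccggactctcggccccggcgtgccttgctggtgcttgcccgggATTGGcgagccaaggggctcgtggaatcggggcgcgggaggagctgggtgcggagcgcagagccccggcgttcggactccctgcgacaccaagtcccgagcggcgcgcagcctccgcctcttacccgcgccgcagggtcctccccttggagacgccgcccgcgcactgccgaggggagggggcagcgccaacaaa
Col4a2: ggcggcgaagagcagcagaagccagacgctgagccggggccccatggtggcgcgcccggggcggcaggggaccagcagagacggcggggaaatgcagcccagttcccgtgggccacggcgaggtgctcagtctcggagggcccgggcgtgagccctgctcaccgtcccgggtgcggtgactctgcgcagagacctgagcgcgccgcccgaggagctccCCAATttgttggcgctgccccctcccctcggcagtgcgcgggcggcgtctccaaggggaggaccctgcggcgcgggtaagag
Col1a2: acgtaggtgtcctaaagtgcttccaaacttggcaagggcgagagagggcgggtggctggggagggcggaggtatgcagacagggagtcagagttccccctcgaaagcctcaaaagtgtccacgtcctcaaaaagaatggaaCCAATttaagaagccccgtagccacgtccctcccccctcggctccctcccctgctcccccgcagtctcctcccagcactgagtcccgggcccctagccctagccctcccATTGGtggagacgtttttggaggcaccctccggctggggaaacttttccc
The windows of Col4a1 and Col4a2 share 78 bases. Each of these 2 windows holds 1 CCAAT, the letters bound by the factor NF-Y, and that of Col1a2 holds 2. TATAAA, searched on both strands in the same way, is in none of the 3. CCAAT was in 37.4% of all 32851 windows and in 7 of the 31 windows of 26 members (22.6%); TATAAA was in 13.6% and 19.4%, and GGGCGG, the GC box, in 35.7% and 58.1%. These matches are letters in a window and not tested sites.

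Counts of Col4a1 (ENSMUSG00000031502) were 506, 380 and 369 in ICI replicates 1 to 3 and 50, 116 and 50 in isotype replicates 1 to 3. Those of Col4a2 were 444, 351 and 401 against 56, 89 and 47. Both genes were higher in each library labelled ICI, and within the isotype group both were highest in replicate 2. Col4a1 was 6.08-fold higher (log2 fold change 2.60, SE 0.44, edgeR adjusted p = 0.00181), or 9.68-fold without isotype replicate 2, and Col4a2 was 6.59-fold higher (2.72, SE 0.30, adjusted p = 8.21e-05). Per transcript length the proportion of Col4a1 to Col4a2 was 1.02 ± 0.111 (SD, n = 3) in libraries labelled ICI and 1.06 ± 0.201 in those labelled isotype.

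The small proteoglycans and matrix-binding proteins were all called higher, 6 of 6, each by more than 4-fold. Dcn (ENSMUSG00000019929) encodes decorin, which binds collagen fibres and sets their spacing. It had 1843, 768 and 610 counts in ICI replicates 1 to 3 and 47, 48 and 72 in isotype replicates 1 to 3. The groups lay far apart and ICI replicate 1 was the highest. The difference was 21.0-fold (log2 fold change 4.40, SE 0.58, edgeR adjusted p = 0.00141); it was 13.3-fold without ICI replicate 1. Lumican (Lum), a keratan sulfate proteoglycan, had 264, 109 and 138 against 3, 10 and 18 counts and was 17.9-fold higher (adjusted p = 0.000315). Osteoglycin (Ogn), a related leucine-rich protein, had 137, 104 and 71 against 3, 1 and 10 counts and was 23.9-fold higher (adjusted p = 3.25e-05), or 49.8-fold without isotype replicate 3. Dermatopontin (Dpt), which binds decorin, had 170, 115 and 94 against 9, 2 and 7 counts and was 22.6-fold higher (adjusted p = 7.19e-06). Biglycan and matrix Gla protein, an inhibitor of calcification, differed less. Bgn had 250, 126 and 100 against 21, 35 and 51 counts (4.83-fold, edgeR adjusted p = 0.00172), and Mgp 177, 90 and 93 against 17, 10 and 42 (5.80-fold, adjusted p = 0.00119; 9.02-fold without isotype replicate 3).

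The elastic fibre genes and fibronectin went different ways. Fn1 (ENSMUSG00000026193), fibronectin, was the most abundant member per transcript length in both groups and overlapped between them. Its counts were 12932, 10216 and 13236 in ICI replicates 1 to 3 and 10983, 16256 and 9872 in isotype replicates 1 to 3, and the log2 difference was 0.05 (SE 0.31) at an edgeR adjusted p of 0.904. Isotype replicate 2 was the highest of all 6 libraries in CPM, and without it Fn1 was called 1.35-fold higher (adjusted p = 0.0371); without each other library but ICI replicate 2 its sign turned, to between -0.01 and -0.18. Fbn1 (ENSMUSG00000027204), fibrillin, the scaffold on which elastin is laid, had 221, 106 and 48 against 357, 282 and 330 counts. It was the only member lower in every library labelled ICI, and it too was highest in ICI replicate 1 within that group. The 2.38-fold lower value (log2 fold change -1.25, SE 0.50) missed the threshold at edgeR adjusted p = 0.0691; it was 3.92-fold lower and called without ICI replicate 1 (adjusted p = 0.000569) and 1.81-fold lower and called without ICI replicate 3 (0.0346). Elastin and the fibulins, which link elastin to fibrillin and to basement membranes, lay the other way. Eln had 78, 24 and 28 against 0, 10 and 2 counts and was 11.2-fold higher (edgeR adjusted p = 0.0111). This value rested on few isotype counts: it was 44.7-fold without isotype replicate 2, 7.25-fold without isotype replicate 1, 6.62-fold without ICI replicate 1, and no longer called without isotype replicate 3 (adjusted p = 0.0502). Fbln1 had 221, 85 and 82 against 9, 0 and 10 counts and was 22.2-fold higher (adjusted p = 0.00136), or 14.2-fold without ICI replicate 1. Fbln2 had 438, 120 and 120 against 28, 17 and 58 counts and was 7.33-fold higher (adjusted p = 0.0135); it was 3.85-fold higher without ICI replicate 1, and not called without isotype replicate 1 or 2 (0.0584 and 0.0666).

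Matricellular genes encode secreted proteins that modulate the contact of cells with the matrix more than they build it. Sparcl1 (ENSMUSG00000029309), hevin, had 213, 133 and 166 counts in ICI replicates 1 to 3 and 1, 3 and 2 in isotype replicates 1 to 3. It was close to absent from the isotype libraries, and the fitted difference was 87.1-fold (log2 fold change 6.45, SE 0.40, edgeR adjusted p = 6.88e-07). Its relative Sparc, a collagen-binding protein, was present in both groups at 302, 178 and 171 against 53, 50 and 109 counts and was 3.39-fold higher (adjusted p = 0.00106). Periostin (Postn), known as a marker of activated fibroblasts in the injured heart, stayed low, at 67, 47 and 42 against 2, 0 and 11 counts. The log2 fold change was 3.70 (SE 0.68, edgeR adjusted p = 0.00108), and the difference was 47.2-fold without isotype replicate 3, which held 11 of its 13 isotype counts. Tenascin X (Tnxb) had 61, 25 and 16 against 1, 1 and 3 counts and was 20.8-fold higher (adjusted p = 0.000401), or 12.4-fold without ICI replicate 1. Tenascin C (Tnc), which is known to be induced at sites of injury, was too low to test: its 13, 1 and 0 counts against 3, 7 and 28 overlapped, with the highest value in an isotype library.

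Of the genes that mature and cross-link collagen, Pcolce rose clearly and the lysyl oxidases were near the limit of detection. Pcolce (ENSMUSG00000029718) encodes an enhancer of the protease that trims procollagen. It had 232, 148 and 132 counts in ICI replicates 1 to 3 and 21, 9 and 12 in isotype replicates 1 to 3, and was 13.2-fold higher (log2 fold change 3.72, SE 0.34, edgeR adjusted p = 7.94e-06). The lysyl oxidases start the covalent cross-links of collagen and elastin. Loxl1 had 55, 18 and 26 against 15, 3 and 3 counts and was 5.09-fold higher (adjusted p = 0.0115), or 11.2-fold without isotype replicate 1 and 3.38-fold without ICI replicate 1, and was not called with ICI replicate 1 and isotype replicate 2 left out together (0.114). Loxl2, at 16, 11 and 10 against 9, 0 and 3 counts, missed the threshold (log2 fold change 1.73, SE 0.72, adjusted p = 0.0541) and passed it without isotype replicate 1 (0.0153). Lox itself was not tested: its 31, 10 and 0 counts against 11, 8 and 2 overlapped, and ICI replicate 3 had none.

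The basement membrane glycoproteins were all called higher, 7 of 7, but by very different amounts. Lamb2 (ENSMUSG00000052911), the laminin beta 2 chain, had 471, 379 and 347 counts in ICI replicates 1 to 3 and 12, 24 and 15 in isotype replicates 1 to 3. The ICI libraries lay close together, and the difference was 25.0-fold (log2 fold change 4.64, SE 0.29, edgeR adjusted p = 9.25e-07). Lamc1 (ENSMUSG00000026478), the gamma 1 chain common to most laminins, had 1488, 1195 and 1222 against 895, 1022 and 877 counts. It was abundant in both groups and only 1.49-fold higher (0.58, SE 0.16, adjusted p = 0.0125); the call was lost without isotype replicate 1 (0.0587) and against a minimum change of 1.5-fold (0.482). Lama2, the alpha chain of muscle and fibroblast laminin, had 116, 58 and 28 against 0, 6 and 1 counts. It was 29.3-fold higher (adjusted p = 0.00183), but 123-fold without isotype replicate 2, 19.2-fold without isotype replicate 1 and 18.4-fold without ICI replicate 1. Lama4, the alpha chain of endothelial laminin, had 124, 59 and 53 against 10, 7 and 7 counts and was 10.5-fold higher (adjusted p = 7.53e-05). Lamb1, the beta 1 chain, had 140, 55 and 24 against 4, 13 and 8 counts and was 9.26-fold higher (adjusted p = 0.00715), or 4.91-fold without ICI replicate 1 and 13.9-fold without isotype replicate 2. Nidogen (Nid1) bridges laminin to collagen IV and had 480, 302 and 545 against 8, 45 and 17 counts. Perlecan (Hspg2), the large heparan sulfate proteoglycan of the basement membrane, had 112, 64 and 101 against 4, 13 and 3. Both were highest in isotype replicate 2 within that group. Nid1 was higher by 4.32 on the log2 scale (SE 0.64, edgeR adjusted p = 0.00153), or 5.35 without isotype replicate 2, and Hspg2 by 3.86 (SE 0.53, adjusted p = 0.000168), or 4.89 without it.

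A laminin is built from an alpha, a beta and a gamma chain in equal numbers, and the chain levels were far from equal in the libraries labelled isotype. Per transcript length the proportion of Lamc1 to Lamb2 was 2.33, 2.33 and 2.60 in ICI replicates 1 to 3 and 55.1, 31.4 and 43.2 in isotype replicates 1 to 3, without overlap. The level of Lamc1 was 8.56, 6.61 and 7.45 CPM per kilobase against 3.97, 5.44 and 3.74. The beta chains Lamb1 and Lamb2 together reached 4.73, 3.24 and 3.06 CPM per kilobase against 0.0956, 0.264 and 0.132. The alpha chains Lama2 and Lama4 together reached 1.43, 0.666 and 0.542 against 0.0560, 0.0723 and 0.0411. Lamc1 was thus above the summed beta and the summed alpha chains of the member list in every library, and by a wider margin in the isotype group. Counts of further laminin chains, looked up after these values were seen, were 0 for Lama1, 9 against 1 for Lama3, 33 against 2 for Lama5, 370 against 132 for Lamb3 and 3 against 0 for Lamc3, summed over the 3 libraries of each group. Of these 5 chains 1 passed the filter on low counts, and no test of them is reported here.

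Ranked per transcript length, the members followed another order than their fold changes. In libraries labelled ICI the highest mean levels were those of Fn1 (64.7 CPM per kilobase), Dcn (26.8), Col14a1 (11.1), Mgp (8.58) and Lamc1 (7.54). In libraries labelled isotype Fn1 (54.2) and Lamc1 (4.39) led, followed by Mgp (1.27), Dcn (1.11), Sparc (1.07) and Col3a1 (1.04). Fn1 and Lamc1, the most abundant members of the isotype libraries, were thus also the members with the smallest fitted differences on the log2 scale.

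The members differed widely in how far ICI replicate 1 lay above the other ICI libraries. For the 36 members with at least 50 counts in libraries labelled ICI, the CPM of ICI replicate 1 was divided by the mean of ICI replicates 2 and 3. This ratio was over 2 for 18 members and under 1.3 for 6; among all 13590 tested genes with as many counts its median was 0.970, the 5th to 95th percentile 0.646 to 1.34, and 0.854% of genes were over 2. Highest were Col1a1 (4.39), Col3a1 (4.09), Fbln2 (3.61), Lamb1 (3.58) and Col1a2 (3.25). Lowest were Fn1 (1.09), Nid1 (1.11), Col14a1 (1.14), Col4a2 (1.17), Lamc1 (1.22) and Lamb2 (1.29). Fibroblast markers that are not matrix genes had a median ratio of 2.88 (range 1.59 to 4.16, 12 genes) and mural cell markers 1.52 (1.01 to 2.43). Cardiomyocyte markers had a median of 1.08 (0.421 to 1.62) and resident macrophage markers 1.12 (0.801 to 1.29). The ratios of Col3a1, Col1a2, Dcn and the fibulins lay within the range of the fibroblast markers, and Col1a1 lay above it. Members of other groups lay within it too, among them Lamb1, Tnxb, Lama2, Col6a3 and Loxl1. The ranges of the marker lists overlapped, and 26 members had ratios over 1.5. Col14a1, Col4a2, Nid1 and Lamb2 lay within the 5th to 95th percentile of all genes, with Col4a1 (1.34) just above it. This grouping was noticed in the data and has no test.

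**Figure D3:**
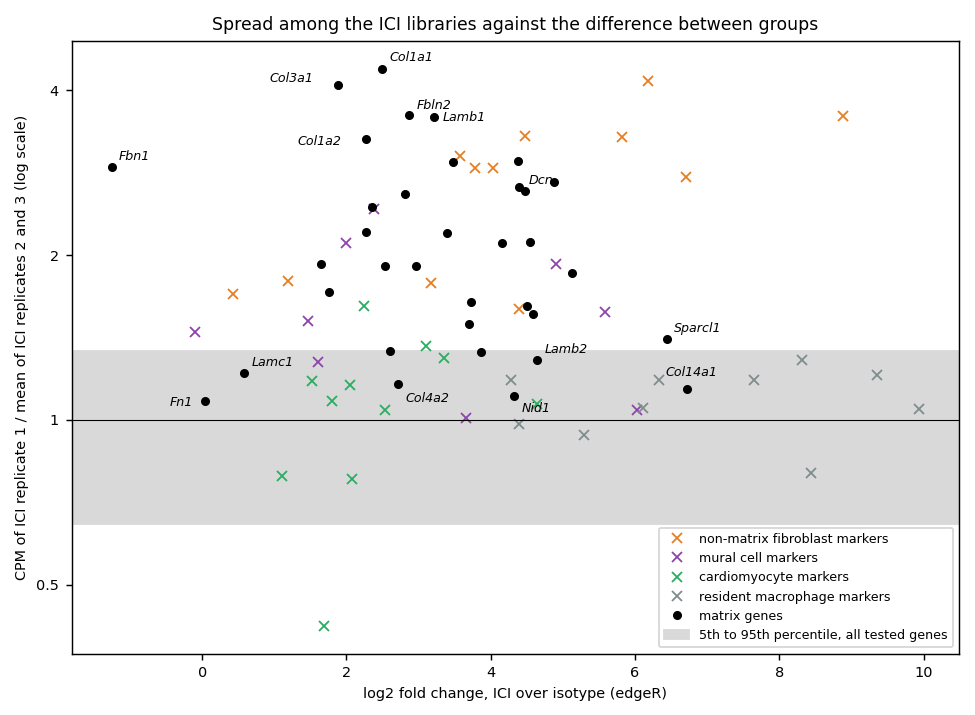
CPM of ICI replicate 1 over the mean of ICI replicates 2 and 3 (log axis) against the log2 fold change between groups (edgeR), for matrix genes (black points) and for marker lists of 4 cell types (crosses), with the 5th to 95th percentile of all tested genes as a grey band. Col1a1, Col3a1, Fbln2, Lamb1 and Col1a2 have the highest ratios of the matrix genes, while Col14a1, Nid1 and Lamb2 combine large differences between groups with ratios inside the band.

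Many transcripts known as markers of cells outside the CD45 gate differed between the groups, though not all in one direction. Which cells they came from and their part in the matrix result were not tested. Of 13 fibroblast markers that are not matrix genes, 12 were tested and 11 were higher, where 34.7% of all tested genes were. Their summed level was 76.1, 32.3 and 30.8 CPM in ICI replicates 1 to 3 and 11.1, 12.5 and 8.78 CPM in isotype replicates 1 to 3, and most of the isotype sum was Pi16, which was not called (edgeR adjusted p = 0.194). Pi16 was also the only tested marker of this list that reached the filter in all 3 isotype libraries. The 11 called higher passed it only through the libraries labelled ICI. Their count thus carries the bias of selection given for the matrix genes. Pdgfra, the receptor that marks cardiac fibroblasts, had 189, 56 and 73 against 14, 4 and 3 counts and was 16.3-fold higher (adjusted p = 0.00131; 9.84-fold without ICI replicate 1 and 30.9-fold without isotype replicate 1). Tcf21, a transcription factor of cardiac fibroblasts, had 46, 27 and 30 against 1, 1 and 3 counts and was 21.0-fold higher (adjusted p = 4.62e-05). Abca8a was 104-fold higher (64.8-fold without ICI replicate 1), Sfrp1 9.03-fold (16.3-fold without isotype replicate 3), and Scara5, with 0 counts in the isotype group, at least 69.6-fold (set at 3 counts over that group; at least 37.4-fold without ICI replicate 1). Summed fibrillar collagens over summed fibroblast markers gave 1.296, 0.744 and 0.921 in ICI replicates 1 to 3 and 0.799, 0.726 and 1.40 in isotype replicates 1 to 3; with Pi16 left out, a choice made after its counts were seen, the values were 1.76, 1.11 and 1.59 against 5.14, 10.6 and 7.85. The isotype values without Pi16 rest on summed marker levels of only 1.73, 0.852 and 1.56 CPM, near the limit of detection.

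Mural cell markers (pericytes and smooth muscle) were higher for 8 of 9 tested genes of 12, with a sum of 22.8 to 33.7 CPM against 4.64 to 7.26 CPM. Rgs5 was 65.3-fold higher (142-fold without isotype replicate 3), Myh11 29.8-fold (47.3-fold without isotype replicate 1) and Kcnj8 12.6-fold, and Cspg4 had 0 counts in the isotype group. Cardiomyocyte markers were higher for 11 of 11 tested genes of 12, with a sum of 54.4 to 70.0 CPM against 6.77 to 17.3 CPM; Mb was 25.0-fold higher, Myl3 10.3-fold and Tnni3 3.49-fold. Most tested genes of the mural and cardiomyocyte lists passed the filter only through the libraries labelled ICI, and 34.7% of all tested genes were called higher. Among the 10 tested endothelial markers of 14, 6 were higher, 1 was lower and 3 were not called. Flt1, which leads that list, was 14.3-fold lower, Tek 8.10-fold higher and Kdr 2.33-fold higher; without Flt1 the sum was 32.1 to 48.9 CPM against 19.5 to 26.9 CPM. Schwann cell markers (7 genes) and mesothelial markers (7 genes) were too low to test, with sums of at most 1.02 and 1.53 CPM; Msln, Krt19, Bnc1, Lrrn4 and Kcna1 had 0 counts in all libraries, Cdh19 in the isotype group and Sox10 in the ICI group. Immune lists were read as well. Resident macrophage markers were higher for 10 of 10 genes, from a sum of 259 to 331 CPM to one of 9602 to 11240 CPM, with Lyve1 348-fold, Pf4 68.9-fold and Gas6 319-fold higher. Of 9 general myeloid markers 3 were higher, 3 lower and 3 not called, with sums of 22813 to 26465 against 18168 to 19785 CPM; Csf1r was 1.90-fold higher, Itgam 2.03-fold lower and Tyrobp 1.67-fold lower. These myeloid counts were near the shares of all tested genes (34.7% higher and 33.7% lower). T cell markers summed to 21.9 to 47.3 against 2.39 to 3.42 CPM, and Cd2 (20.3-fold higher) made up most of it in the libraries labelled ICI; Cd3g was 3.06-fold higher and Trac 2.33-fold lower, and of these Cd3g lost its call without isotype replicate 1 (edgeR adjusted p = 0.0574) and Trac without ICI replicate 1 or 2 or isotype replicate 1 or 3 (0.0557 to 0.115).

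**Figure D4:**
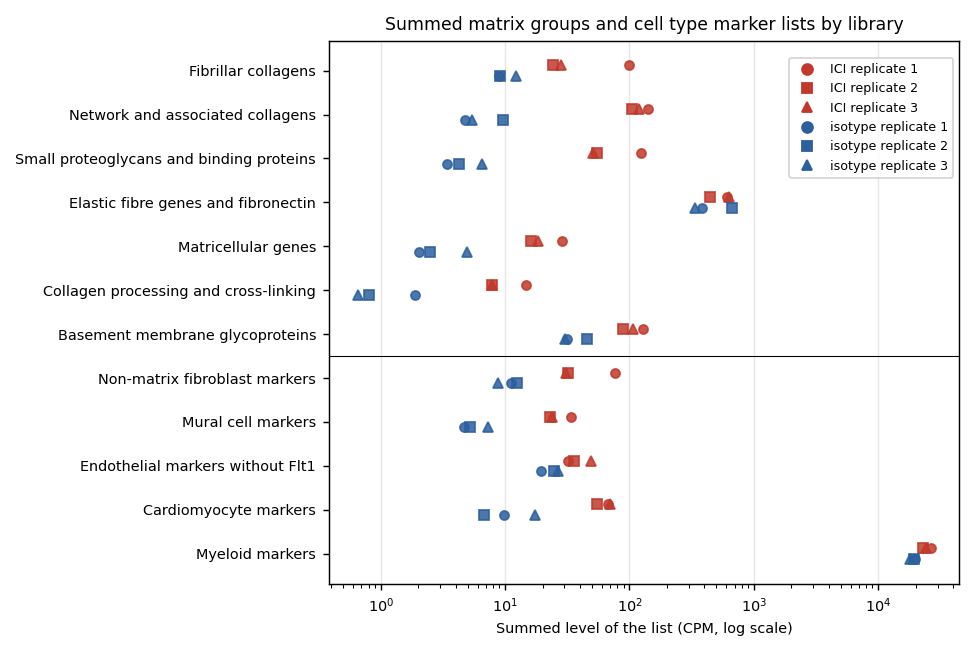
Summed level of each group of matrix genes (upper part) and of marker lists of other cell types (lower part) in each library, in CPM on a log axis, ICI in red and isotype in blue with a marker shape for each replicate. Fibrillar collagens (24.1 to 98.6 CPM against 8.87 to 12.3 CPM) and fibroblast markers have ICI replicate 1 apart from the other ICI libraries. The sums of network collagens and of cardiomyocyte markers do not. Most of the network sum in the ICI libraries is Col14a1. By chain, ICI replicate 1 over the mean of ICI replicates 2 and 3 was 1.14 for Col14a1, 1.17 for Col4a2 and 1.34 for Col4a1. It was 2.11 for Col6a1, 1.86 for Col6a2, 2.59 for Col6a3 and 1.92 for Col15a1.

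Genes around the matrix, on lists drawn up from general knowledge of collagen synthesis and sensing, differed in both directions. So did all tested genes, of which 34.7% were called higher and 33.7% lower. Of 22 genes of collagen folding and trimming 19 were tested; 10 were higher, 6 lower and 3 not called (median log2 fold change 0.27). Those with the smallest p were the prolyl hydroxylase subunit and disulfide isomerase P4hb (2.01-fold lower, edgeR adjusted p = 7.25e-06), the catalytic subunit P4ha2 (3.20-fold higher, 2.11e-05), the cyclophilin Ppib (1.94-fold lower, 2.17e-05) and the transcription factor Creb3l1 (3.23-fold lower, 2.69e-05). Of 31 other collagen chains only 10 were tested, with 8 higher, 1 lower and 1 not called, and 8 chains had 0 counts in all libraries. The 8 called higher passed the filter only through the libraries labelled ICI. The chain called lower and the chain not called reached it in every isotype library. This split thus carries the same bias of selection as that of the matrix genes. Col27a1 had 52, 38 and 41 counts against 0, 2 and 1, a ratio of 54.5 (95% exact counting interval 18.2 to 268), or 116 (20.5 to 4619) without isotype replicate 2. Col16a1 had 94, 51 and 47 against 0, 0 and 3, a ratio of 79.9 (26.9 to 391); without isotype replicate 3, which held all its isotype counts, it was at least 50.9-fold higher. Col5a3 was 14.7-fold higher (29.8-fold without isotype replicate 2), and Col20a1 6.01-fold.

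Of 26 matrix receptors 24 were tested, with 14 higher, 4 lower and 6 not called (median log2 fold change 0.60). The mannose receptor Mrc1, which takes up collagen fragments and is also on the resident macrophage list, reached 1836 ± 60.8 CPM against 76.0 ± 20.5 CPM (SD, n = 3), a difference of 21.0-fold by edgeR (adjusted p = 1.99e-07). The integrin chain Itga9 was 11.9-fold higher and dystroglycan (Dag1), a laminin receptor, 1.77-fold, while the syndecan Sdc3 was 2.09-fold lower. Of 20 genes of TGF-beta, the cytokine that drives collagen synthesis, 19 were tested, with 12 higher, 2 lower and 5 not called (median log2 fold change 0.60). Beside the receptor and TGF-beta counts, the shares over all tested genes were 34.7% higher and 33.7% lower. The receptor Tgfbr2 reached 547 ± 41.3 CPM against 114 ± 15.4 CPM, a difference of 4.16-fold by edgeR (adjusted p = 2.91e-07). Ltbp4, a matrix protein that holds latent TGF-beta, had 716, 277 and 396 counts against 3, 4 and 1 and was 180-fold higher. The co-receptor Tgfbr3 was 34.1-fold higher (101-fold without isotype replicate 2), and Lrrc32, which presents latent TGF-beta on the cell surface, 5.70-fold.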

How the data were processed

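The deposited data were raw counts for each Ensembl gene in 6 libraries, not normalized by the authors. Build GRCm39, Salmon 1.10.1 and STAR 2.7.10a are listed in the submitters' processing notes, without the step each served. Not given in the sources used here are the annotation release and whether the whole-number counts are rounded estimates. Per the labels' protocols, libraries were non-directional (SMART-seq V4), so a gene and an overlapping antisense gene cannot be told apart. Symbols were matched on Ensembl identifiers (52029 of 57010).

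Groups were compared with edgeR 4.0.16 in R 4.3.3 (quasi-likelihood F test, TMM factors, robust dispersions, filterByExpr with a minimum count of 10), with Benjamini-Hochberg adjustment over 14575 genes and calls under 0.05; the procedure was tested on simulated data. SE was derived from the fold change and F. CPM used library totals; levels per kilobase used the longest GENCODE vM21 transcript of each gene and are approximate. Exact 95% binomial intervals and floors (3 counts over a group) hold counting error alone: the reads were amplified and carry no molecular identifiers, so they are not independent molecules. Alternatives used DESeq2 1.42.0, limma 3.58.1 (voom), other scalings and filters, a replicate block and left-out libraries. No pair of replicates was a repeated library (chi-square per degree of freedom 13.8 to 37.4). The labels give 1 batch date for all libraries.

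The members and lists were chosen with earlier results of these data known. All 40 members are named; of each pathway list, the 4 tested genes with the smallest p, and of each marker list 3, plus markers at 0 counts in a group; Thy1, Pdgfra, Tcf21 and Ptprc are always named. Xist, Pi16 and further laminin chains were named after their values were seen. Some genes are not reported here.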

Additional observations from a re-analysis of the deposited data

How the results depend on the processing

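Of 638 member values under 18 alternatives, 594 kept their direction and their side of the threshold, 21 passed it newly, 18 no longer passed it and 5 changed sign; 25 of 36 members kept both under every alternative that could be fitted. Members called higher numbered 24 (strict filter, 26 tested) to 35. Members called lower were 0 in the reported fit and 1, Fbn1, with limma-voom, with the replicate block, with a term for the Xist-high libraries, with replicates 1 and 2 of each group alone, and with ICI replicate 1 and isotype replicate 2 left out together (the last 3 added after the data were seen); with each library left out in turn they ranged from 0 to 1. The Fn1 log2 fold change, 0.05, ranged from -0.18 to 0.43 with each library left out and was -0.25 with replicates 1 and 2 alone. Over all genes, 5463 were called against a 1.5-fold change in place of 9969, since that test asks for more than any change, and 8241 to 11345 under the other alternatives. Upper-quartile factors gave 6108 higher and 3808 lower, and library totals 6212 and 3700, moving the median log2 fold change from 0.03 to 0.21 and 0.23. Without a filter Col1a1, Col1a2 and Fbln2 were not called (adjusted p = 0.0848, 0.0685 and 0.0532), and Col1a1 was not called against a 1.5-fold change (0.0659). With the replicate block 9808 genes, 32 members higher and 1 lower were called, and Col1a1 was not (adjusted p = 0.0576); same-numbered libraries deviated together only weakly (correlations across genes 0.03, 0.06 and 0.13), ICI replicate 2 more with isotype replicate 1 (0.09) than with its own number, and the numbers were not taken as pairs. The cause of these shifts was not tested. Counts under about 10 per library limit Col5a2, Col18a1, Tnc, Lox, Loxl2 and the isotype values of most members, and groups of 3 libraries give no test of a library that stands apart.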
